A study of Mus musculus with 4 samples.

Results

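The 10 genes described here encode the transcriptional coactivators YAP (*Yap1*) and TAZ (*Wwtr1*), the DNA-binding partners *Tead1* and *Tead4*, the target genes *Ccn1*, *Ccn2* and *Ankrd1*, and the pathway regulators *Amotl2*, *Lats2* and *Ajuba*. They were chosen by symbol, as known components and mechanically responsive targets of the pathway, from the 32285 genes of the count matrices, and each had a row in all 4 matrices. The cells were muscle stem cells (MuSCs), the Pax7-expressing cells beneath the basal lamina from which skeletal muscle regenerates. They were sorted as tdTomato+ cells from hindlimb muscle and profiled by 3′ single-cell RNA-seq on the 10x platform, in which each unique molecular identifier (UMI) stands for 1 captured transcript. The 2 control samples came from Pax7CreERT2/+;Rosa26-tdTomato mice. The 2 α-cdKO samples came from Ctnna1fl/fl;Ctnna3fl/fl;Pax7CreERT2/+;Rosa26-tdTomato mice, in which the αE- and αT-catenin genes are floxed. All mice were C57BL/6J, 3 to 4 months old, and were killed 14 days after 5 daily tamoxifen injections (14 DPT), so that CreERT2, the reporter and tamoxifen were common to both groups. The Cre was driven by *Pax7*, each sample was a pool of 2 littermates, and no reporter or Cre transcript was among the genes counted, so recombination could not be read in single cells.

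YAP and TAZ bind no DNA themselves and act on genes through TEAD factors. The Hippo kinase cascade, which ends in LATS1 and LATS2, phosphorylates them and keeps them out of the nucleus, whereas a stiff substrate, cell spreading and actin tension favour their entry. Several of their target genes encode inhibitors of the same pathway, and in MuSCs the pathway is known for its part in activation and proliferation. Where YAP and TAZ reside is set on the protein, so transcript levels of *Yap1*, *Wwtr1* and the TEAD genes do not report where the proteins were.

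The sequences upstream of these genes are shown because binding of TEAD to promoter-proximal motifs is a route by which targets can respond. Sites further from the genes were not searched. RefSeq promoter windows (GRCm38.p6), restricted to the 250 bases before each annotated start, were found for 7 of the 10 genes, and none was found for *Tead1*, *Tead4* or *Ccn2*. The TEAD core motif GGAATG, searched on both strands, occurred for 6 of the 7 (*Yap1*, *Wwtr1*, *Ccn1*, *Ankrd1*, *Amotl2* and *Ajuba*) and in neither of the *Lats2* windows. Among all 27025 genes with a window, 14.4% held the motif. The AP-1 motif TGANTCA occurred for 0 of the 7 and for 7.82% of all genes, and the CArG box, bound by SRF, for 0 of the 7 and for 1.62%. A match is a string of letters, not a site of binding. For 3 genes that varied between cell states, the 250 bases are printed 5′ to 3′ on the strand of the gene, with TEAD motifs in capitals (CATTCC is the motif on the opposite strand). *Ccn1* lies on the minus strand (chr3:145649986-145650235), *Ankrd1* on the minus strand (chr19:36119845-36120094) and *Amotl2* on the plus strand (chr9:102717554-102717803). In another annotation of GRCm38 *Ankrd1* reaches to chr19:36120099 and *Amotl2* starts at chr9:102716672, so that both windows lie inside the genes as given there. The *Lats2* windows (chr14:57746124-57746373 and chr14:57734419-57734668, minus strand) also lie inside the gene of that annotation, which reaches to chr14:57758388. The bases before that end of *Lats2* were not searched.
Ccn1: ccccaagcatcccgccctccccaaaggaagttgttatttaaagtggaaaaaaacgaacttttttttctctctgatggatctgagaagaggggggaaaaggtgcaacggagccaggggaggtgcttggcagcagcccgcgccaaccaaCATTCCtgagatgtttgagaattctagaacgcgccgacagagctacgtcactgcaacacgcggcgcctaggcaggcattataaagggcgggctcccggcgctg
Ankrd1: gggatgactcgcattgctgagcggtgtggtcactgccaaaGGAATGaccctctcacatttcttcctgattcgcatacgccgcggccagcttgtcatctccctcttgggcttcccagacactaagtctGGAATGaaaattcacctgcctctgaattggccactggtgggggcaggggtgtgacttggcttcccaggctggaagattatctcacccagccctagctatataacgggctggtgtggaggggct
Amotl2: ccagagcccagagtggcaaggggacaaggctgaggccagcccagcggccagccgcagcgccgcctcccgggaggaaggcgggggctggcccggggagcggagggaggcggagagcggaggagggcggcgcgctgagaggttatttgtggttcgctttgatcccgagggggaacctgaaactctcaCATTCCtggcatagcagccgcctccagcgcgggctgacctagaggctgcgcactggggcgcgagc
The matches of the coactivator genes and of *Ajuba* are shown in windows of 30 bases, all on the minus strand, at chr9:8004720-8004749, chr3:57576029-57576058, chr14:54577830-54577859 and chr14:54577808-54577837.
Yap1: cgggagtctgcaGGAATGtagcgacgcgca
Wwtr1: ggtaaactcaaaGGAATGcagataggcgct
Ajuba, first match: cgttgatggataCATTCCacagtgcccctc
Ajuba, second match: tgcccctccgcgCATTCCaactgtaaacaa

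Of 31254 barcodes, 28790 were kept (5484, 5354, 9786 and 8166 in control 1, control 2, α-cdKO 1 and α-cdKO 2), with median depths of 6452.5 to 8075 UMIs per cell and 9 to 26 barcodes shared by any pair of samples. Clusters were named from marker lists, and 27185 cells were myogenic. They fell into 4533 quiescent-like cells (led by *Fos*, *Jun*, *Hes1* and *Hspa1a*, which include stress genes), 12181 activated-like cells (led by the chemokine genes *Cxcl3*, *Cxcl2* and *Cxcl5* and by *Dio2*), 8998 cells of an unnamed cluster led by chaperone genes such as *Dnaja4* and *Hsph1* (chaperone-high), 313 mature-myocyte-like, 510 differentiated-like and 650 cycling-like cells. The other 1605 cells were mature-muscle-like, endothelial-like or immune-like and were set aside. Control 2 held 786 of the 1297 mature-muscle-like cells, and its 120 mature-myocyte-like cells had a median of 1331 UMIs. In α-cdKO 1 the summed immediate-early transcripts of myogenic cells were 5550 CPM (counts per 1000000 UMIs), against 8892 to 9891 in the other samples. *Ctnna1* stood at 91.0 and 74.7 CPM in the control and 79.5 and 75.6 CPM in the α-cdKO samples and *Ctnna3* had 1 to 7 UMIs per sample, so that 3′ counts did not separate the genotypes by the floxed genes. Levels below are UMIs of a gene summed over the cells of a class, in CPM of that class and sample, listed for control 1, control 2, α-cdKO 1 and α-cdKO 2 in that order. A lower sum can come from fewer cells with the transcript or from less RNA in each, and the sums cannot tell these apart. The cells were clustered without the 10 genes, but the states were still defined on the same cells, so that levels across states are given as a description with no test.

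*Yap1*, the YAP gene, was lowest in the quiescent-like and cycling-like cells and higher in the activated-like cells of every sample. Its level in quiescent-like cells was 22.2, 14.3, 19.8 and 16.7 CPM. In activated-like cells it was 50.6, 50.5, 53.6 and 52.5 CPM. The 2 ranges were far apart. The genotypes were interleaved in the quiescent-like cells, while both α-cdKO values lay slightly above both control values in the activated-like cells. Between these states the level was 2.77-fold lower in quiescent-like cells (log2 ratio −1.47 ± 0.26, SD over 4 samples, 1 CPM added). Chaperone-high cells stood in between at 41.8 ± 2.0 CPM (SD, n = 4), closer to the activated-like cells, and differentiated-like cells had 21.3 CPM. *Wwtr1*, which encodes TAZ, varied less. It stood at 122, 94.9, 106 and 106 CPM in quiescent-like and at 167, 145, 178 and 169 CPM in activated-like cells, without overlap (log2 ratio −0.62 ± 0.12).

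The 2 DNA-binding factors were distributed differently. *Tead1*, the TEAD gene found throughout the myogenic cells, stood at 63.6, 62.0, 76.7 and 57.3 CPM in quiescent-like cells. It reached 177, 167, 171 and 139 CPM in activated-like cells and 174, 202, 195 and 185 CPM in differentiated-like cells. The quiescent-like level was thus below that of both other states in all 4 samples, with a log2 ratio of −1.32 ± 0.15 to the activated-like cells, whereas the activated-like and differentiated-like ranges overlapped. *Tead4*, a TEAD gene known to be induced in myogenic differentiation, was nearly confined to the differentiated-like cells among the myogenic classes. They held 73 of its 85 myogenic UMIs, at 5.9, 13.7, 8.2 and 10.1 CPM, against 1 UMI in quiescent-like and 2 in activated-like cells. Among cells thinned to 2000 UMIs it was detected in 1.81% of differentiated-like cells (95% exact binomial interval 0.833 to 3.42%, counting error only) and in 0 of 4399 quiescent-like cells, a count that leaves room for a share of at most 0.0682%. The share in endothelial-like cells was 1.18% (0.144 to 4.21%), so that at this depth the differentiated-like share was not separated from that of a non-myogenic class. In the mature-myocyte-like cells no UMI was counted.

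**Figure D1:**
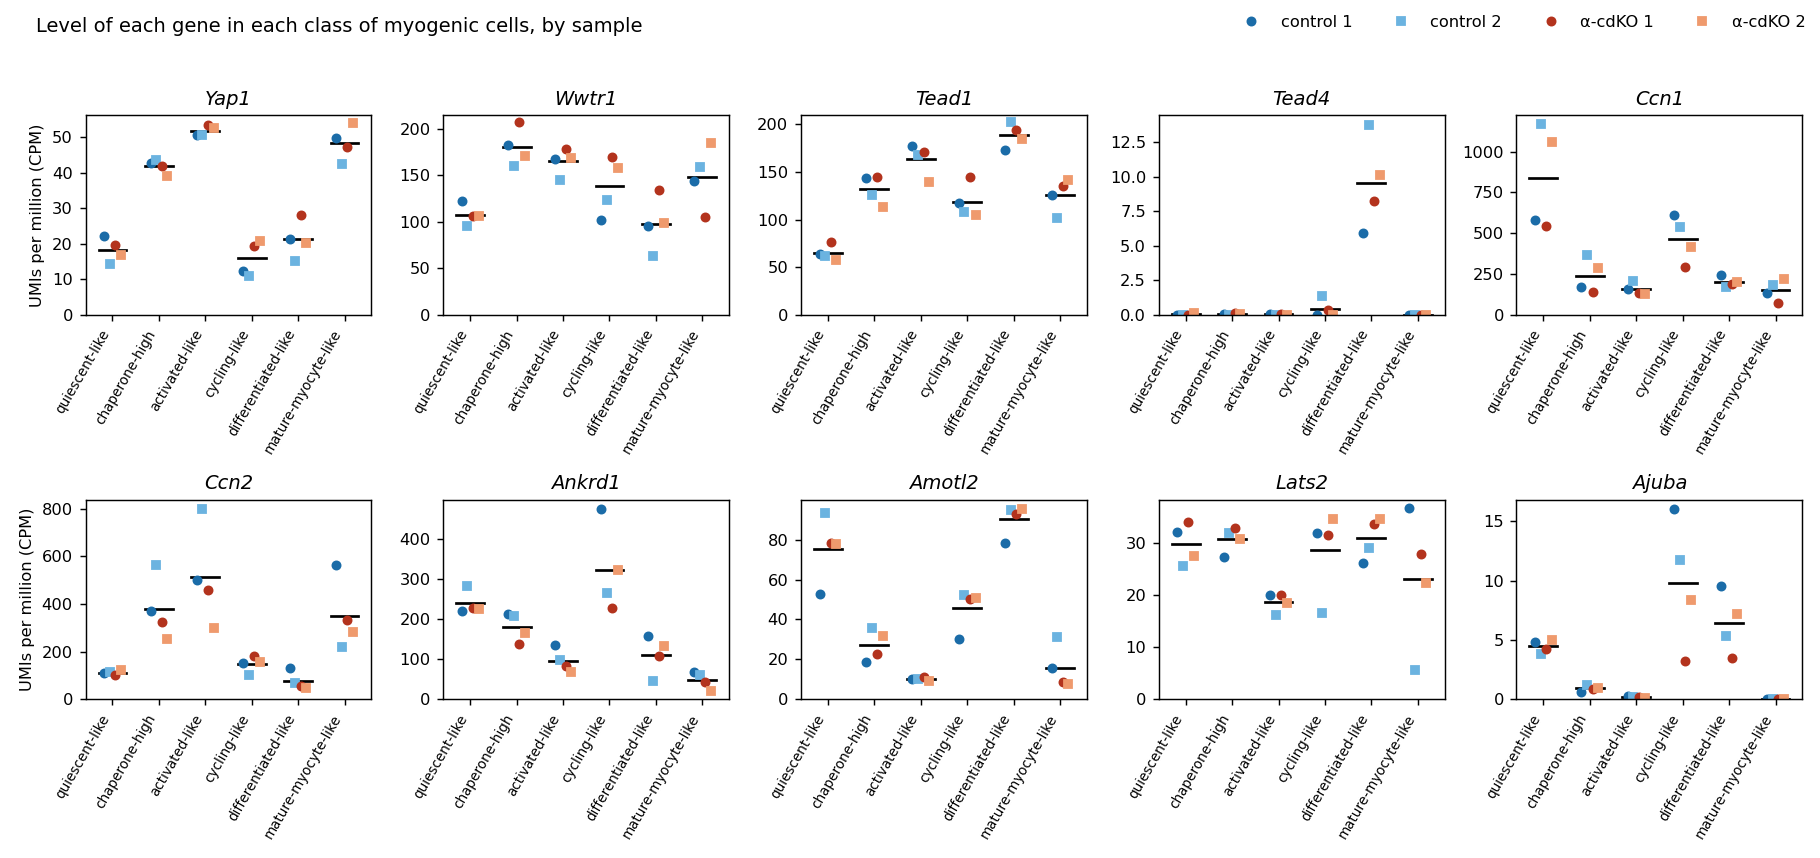
Level of each of the 10 genes (CPM, linear scale from 0) in each class of myogenic cells, with 1 point per sample, control in blue and α-cdKO in red or orange, and a bar at the mean of the 4 samples. *Yap1*, *Tead1* and *Ccn2* sit lower in quiescent-like than in activated-like cells in all 4 samples, *Ccn1* and *Amotl2* sit higher, and *Tead4* stands out in differentiated-like cells.

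The target genes did not move together. *Ccn1*, which encodes the matricellular protein CYR61, stood at 578, 1167, 542 and 1061 CPM in quiescent-like cells. In activated-like cells it stood at 156, 206, 134 and 125 CPM. Every quiescent-like value was above every activated-like value, by 3.68- to 8.45-fold within a sample and 5.16-fold on average (log2 ratio 2.37 ± 0.54). Control 2 and α-cdKO 2 were both high and control 1 and α-cdKO 1 both low in the quiescent-like cells, so that the genotypes overlapped. Cycling-like cells also held much *Ccn1*, at 294 to 609 CPM.

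*Ccn2*, which encodes the related protein CTGF, had the opposite pattern. In quiescent-like cells it stood at 110, 116, 100 and 122 CPM, within a narrow range. In activated-like cells it stood at 502, 799, 459 and 297 CPM and varied much more between samples. The quiescent-like level was 4.31-fold lower on average (log2 ratio −2.11 ± 0.62), and differentiated-like cells were lower still in 3 of 4 samples, at 133, 67.9, 55.8 and 45.6 CPM. *Ankrd1*, which encodes a cardiac and muscle ankyrin repeat protein of the nucleus and sarcomere, followed *Ccn1*. It stood at 220, 282, 228 and 226 CPM in quiescent-like and at 135, 98.4, 83.7 and 66.9 CPM in activated-like cells, a log2 ratio of 1.35 ± 0.45, with no overlap between the states. Its levels in cycling-like cells were 228 to 474 CPM.

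The regulators were mostly higher in the quiescent-like state. *Amotl2*, an angiomotin family member that holds YAP at junctions and in the cytoplasm, stood at 52.8, 93.2, 78.5 and 77.8 CPM in quiescent-like cells. It stood at 10.4, 10.2, 11.0 and 9.2 CPM in activated-like cells. The states were 6.71-fold apart (log2 ratio 2.75 ± 0.37), and differentiated-like cells were again high, at 78.4, 94.7, 92.9 and 95.5 CPM. *Lats2*, a kinase that phosphorylates YAP and TAZ, differed little, with 29.8 CPM in quiescent-like and 18.7 CPM in activated-like cells on average (log2 ratio 0.64 ± 0.07). *Ajuba*, a LIM protein that inhibits LATS kinases, was scarce, with 334 UMIs in all myogenic cells. It stood at 4.8, 3.8, 4.2 and 5.0 CPM in quiescent-like cells, and 17 UMIs were counted in all activated-like cells.

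Chaperone-high cells lay between the quiescent-like and activated-like cells for most of the genes. *Ccn1* stood there at 172, 363, 140 and 284 CPM, again with control 2 and α-cdKO 2 above the other samples. *Ccn2* stood at 371, 565, 325 and 255 CPM and *Amotl2* at 18.6, 35.9, 22.8 and 31.9 CPM. Relative to activated-like cells of the same sample, *Ccn1*, *Ankrd1* and *Amotl2* were higher and *Yap1*, *Tead1* and *Ccn2* lower in 4 of 4 samples, which is the direction of the quiescent-like cells with smaller ratios (log2 ratio 1.29 ± 0.48 for *Amotl2* and −0.41 ± 0.13 for *Ccn2*). Cycling-like cells, of which the samples held 30, 84, 409 and 127, had little *Yap1* (12.4, 11.0, 19.4 and 20.8 CPM). They had the highest mean level of *Ajuba* of the myogenic classes, at 16.0, 11.7, 3.2 and 8.3 CPM on 64 UMIs. No genotype fit was run in this class. Mature-myocyte-like cells held *Yap1* at 48.4 ± 4.8 CPM, near the activated-like level, and little *Ankrd1* (47.8 ± 21.0 CPM) and *Amotl2* (15.7 ± 10.9 CPM). Outside the myogenic cells, the 179 endothelial-like cells held the highest mean level of *Amotl2*, 128 ± 32.9 CPM, and mature-muscle-like cells the lowest, 7.2 ± 4.1 CPM.

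Of the 8 genes with a mean level of at least 10 CPM, 2 (*Ccn1* and *Amotl2*) were at least 2-fold higher in quiescent-like than in activated-like cells in 4 of 4 samples, against 8.92% of the 6001 genes at that level. Another 3 (*Yap1*, *Tead1* and *Ccn2*) were at least 2-fold lower in 4 of 4, against 11.0% of those genes. *Ankrd1* missed the first count because its ratio was 1.62-fold in control 1, and without that sample the 2 counts together held 6 genes in place of 5. With finer clusters (resolution 0.4) they held 3, while no ratio changed sign.

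**Figure D2:**
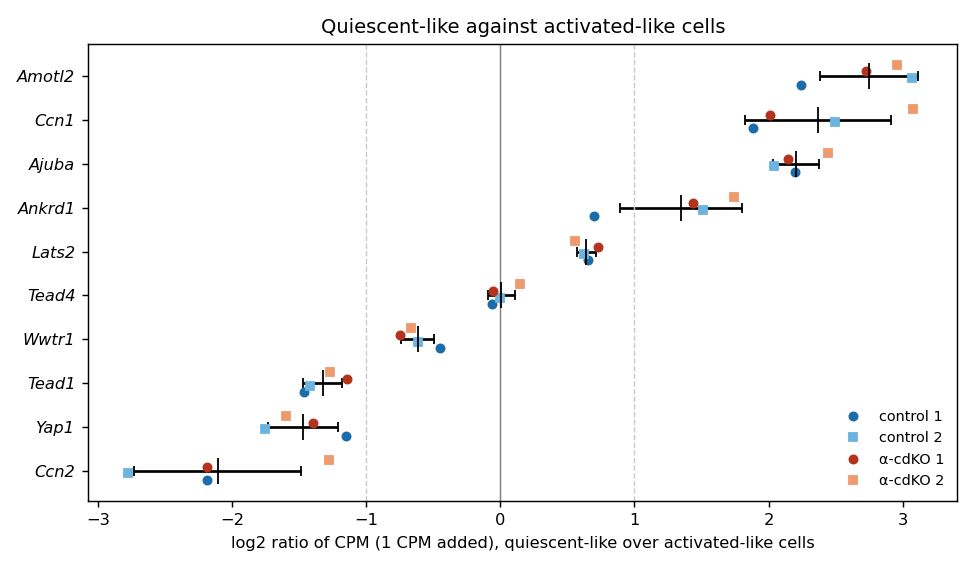
Log2 ratio of the level in quiescent-like to that in activated-like cells (1 CPM added) for the 10 genes, with 1 point per sample and bars for the mean and SD of 4 samples. The ratios run from −2.11 for *Ccn2* to 2.75 for *Amotl2*, and the samples of both genotypes lie on the same side of 0 for every gene except *Tead4*, which was near its detection limit in both states.

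Shares of cells with a UMI, taken at 2000 UMIs per cell to remove depth, followed the levels. *Ccn1* was detected in 36.9% of quiescent-like and 13.1% of activated-like cells. *Ccn2* was detected in 7.84% and 20.6%, and *Amotl2* in 11.4% and 1.84%. The thinning left out 134 quiescent-like and 76 activated-like cells. Immune-like cells, of which 120 could be thinned, had *Ccn1* in 25.8%, *Ccn2* in 18.3%, *Amotl2* in 11.7% and *Ankrd1* in 2.50%. The lower of each pair of *Ccn1* and *Ccn2* shares was thus not above the share in cells of another lineage. Nor was the quiescent-like share of *Amotl2*. The activated-like *Ccn2* share of 20.6% was only slightly above the immune-like 18.3%, and their intervals were not compared. The intervals for *Amotl2* were 10.5 to 12.4% in quiescent-like and 1.61 to 2.10% in activated-like cells. They cover counting error over the pooled cells of all samples, not the spread between samples. The 2 states were also defined on the same cells, so that these intervals are no test of a difference between them. *Ankrd1* was detected in 16.0% of quiescent-like cells.

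Within quiescent-like and activated-like cells, *Ccn1* and *Ccn2* were detected together a little more often than the product of their separate shares. In activated-like cells the share of cells with both was 1.41, 1.33, 1.30 and 1.23 times the product of the separate shares. In quiescent-like cells it was 1.27, 1.29, 1.31 and 1.18 times that product. In cycling-like cells the ratio was 0.99, 0.80, 1.15 and 0.82, below 1 in 3 of 4 samples. The lower of the shares in each state was not above the immune-like share, so that these ratios do not say whether single cells expressed both genes. Across the 24 sums of 4 samples by 6 myogenic classes, which share libraries and depth, the levels of *Ccn1* and *Ccn2* had a Pearson correlation of −0.43, those of *Ccn1* and *Ankrd1* of 0.71, those of *Ccn2* and *Yap1* of 0.80, and those of *Ccn2* and *Amotl2* of −0.85.

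Over the same sums, the 8 members with a mean of at least 10 CPM were each set against the 4365 genes with a mean of at least 20 CPM. The pattern of *Ccn1* was most like those of *Egr1* (r = 0.92), *Hes1* (0.90) and *Nr4a1* (0.87), and *Egr1* and *Nr4a1* are immediate-early genes. *Hes1* was among the markers by which the quiescent-like cells were named. *Ccn2* was most like *Spred1*, *Osmr* and *Por* (0.92 each), *Ankrd1* like *St3gal2* (0.88) and *Amotl2* like *Trappc2l* (0.95). *Yap1* was most like *Kdm7a* (0.97), *Wwtr1* like *Gna13* (0.89) and *Lats2* like *Chd6* (0.80). None of these 8 was among the 3 closest genes of another.

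Immediate-early genes are switched on within minutes by serum, stress and tissue dissociation, and they varied strongly among quiescent-like cells, so the cells of each sample were thinned to 2000 UMIs and ranked by their summed immediate-early UMIs. *Ccn1* was higher in the highest than in the lowest 25% of quiescent-like cells of each sample. It went from 146 to 1020 CPM in control 1 and from 225 to 2366 CPM in control 2. It went from 71.9 to 1327 CPM in α-cdKO 1 and from 185 to 2061 CPM in α-cdKO 2, so that the folds lay between 6.98 and 18.5. *Ankrd1* differed between these cells by 5.71-, 4.27-, 2.67- and 2.54-fold, and *Amotl2* by 2.58- to 3.50-fold. *Ccn2* differed by 1.33- to 5.72-fold and *Yap1* by 1.33- to 2.38-fold, also higher in every sample. *Tead1* differed by 1.02- to 1.22-fold. In chaperone-high cells the same ranking separated *Ccn1* by 4.47- to 8.27-fold, *Amotl2* by 3.33- to 4.22-fold and *Ankrd1* by only 1.17- to 2.03-fold. The highest 25% of these cells held less *Ccn2* than the lowest, at 0.63 to 0.81 of its level. In activated-like cells the ranking separated *Ccn1* by 1.18- to 2.29-fold, and *Ccn2* stood at 0.51 to 0.76 of its level in the lowest 25%. The highest 25% of activated-like cells held means of 14.5 to 21.7 immediate-early UMIs, against 68.5 to 100 in quiescent-like cells. Cells of one sample are not replicates and the ranking gene sums and *Ccn1* share their library, so that no test is given. The part that dissociation and sorting may have in these levels was not tested.

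**Figure D3:**
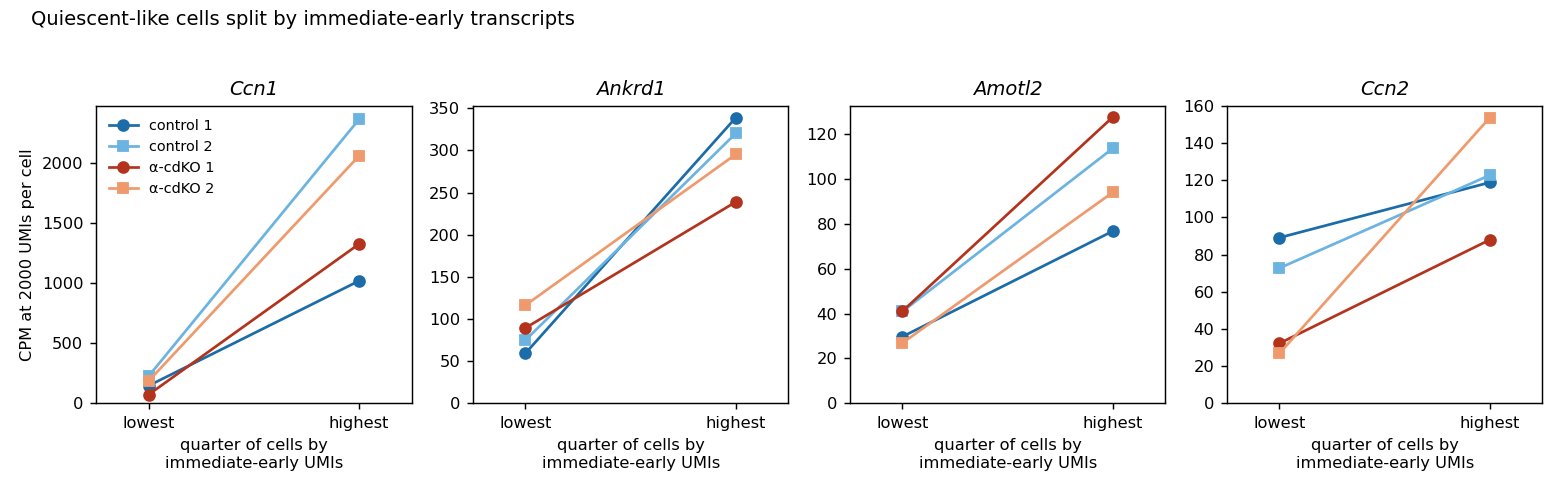
Level (CPM, cells thinned to 2000 UMIs) of *Ccn1*, *Ankrd1*, *Amotl2* and *Ccn2* in the lowest and highest 25% of the quiescent-like cells of each sample by summed immediate-early UMIs, with 1 line per sample. *Ccn1* climbs by 6.98- to 18.5-fold, and the other 3 genes also climb in every sample.

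The wider pathway did not shift with *Ccn1* and *Amotl2*. Of 21 Hippo kinases and upstream regulators, 14 reached 10 CPM, 0 were at least 2-fold higher in quiescent-like cells in 4 of 4 samples and 2 were at least 2-fold lower. These were *Limd1*, which encodes a LIM protein related to Ajuba (log2 ratio −2.11 ± 0.15), and *Frmd6*, which encodes a FERM protein upstream of the kinases (−1.41 ± 0.06). The median of the 14 was −0.26, against −0.06 over all genes. Of 5 other TEAD and VGLL cofactor genes, 4 reached 10 CPM and 0 passed either way (*Vgll4*, −0.61 ± 0.26). Of 16 other YAP/TAZ target genes, 7 reached that level and only *Ccdc80*, named after its value was seen, passed (1.49 ± 0.29), with a median of −0.01 over the 7. Of 15 genes of the MRTF/SRF and cytoskeletal list, which respond to actin polymerization, 9 reached it. *Acta2*, for smooth muscle actin, was higher (1.48 ± 0.30), while *Actg1*, for cytoplasmic actin (−1.35 ± 0.24), and *Vcl*, for vinculin and named after its value was seen (−1.44 ± 0.19), were lower. Of 12 immediate-early genes, all reached 10 CPM and 8 were at least 2-fold higher, with a median of 1.92.

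**Figure D4:**
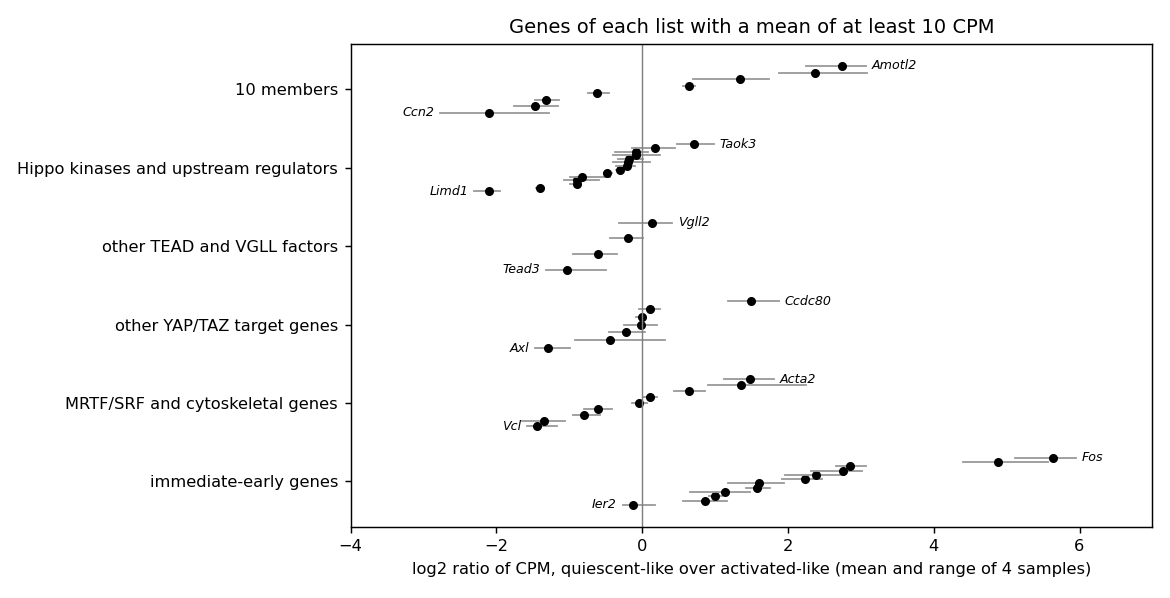
Log2 ratio of quiescent-like to activated-like level for the genes of each list with a mean of at least 10 CPM, with a point at the mean and a line over the range of 4 samples for each gene. Of the 12 immediate-early genes only *Ier2* has a mean below 0, whereas the genes of the pathway lists lie on both sides of 0.

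The comparison of α-cdKO with control samples asks whether transcripts of a pathway that senses junctions and tension differed with the α-catenin genotype. The paper reports that, on myofibers, most α-cdKO MuSCs left after tamoxifen still stained for an α-catenin. Loss of the proteins was not measured in the cells sequenced here. The comparison was fitted by edgeR's quasi-likelihood test on UMI sums of 2 against 2 samples, over all genes that passed the count filter. No member was called in any class by this fit. In all myogenic cells 0 of the 10 members were called, as were 0.171% of 14645 genes. Calls were 0 of 9 members in quiescent-like cells (0.0689% of genes), 0 of 8 in activated-like cells (0.188%) and 0 of 10 in differentiated-like cells (0.0493%). The numbers with an unadjusted p under 0.05 were 2, 0, 3 and 2 members, where 7.07, 8.30, 6.88 and 4.54% of all genes had one. The members not tested had too few counts. DESeq2 called 0 members in these 4 classes.

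*Ccn2* had the largest difference of the 10 genes in all myogenic cells. Its level in all myogenic cells was 398, 556, 328 and 245 CPM, with both α-cdKO samples below both control samples. The log2 fold change was −0.75 ± 0.19 (SE; 95% interval −1.21 to −0.28), with an adjusted p of 0.495. In activated-like cells, which held 45730 of its 82287 myogenic UMIs, it was −0.75 ± 0.25 (−1.30 to −0.19), with an adjusted p of 0.544. The groups did not overlap there either. In quiescent-like cells it was 0.02 (−0.33 to 0.36) and the genotypes overlapped, but it was −0.41 where the cells had been clustered without batch integration. In differentiated-like cells, of which control 1 had 47, it was −0.93 ± 0.31 with an adjusted p of 0.999, and without control 2 it was −1.34 with an adjusted p of 0.000964. The difference of the genotype effects between activated-like and quiescent-like cells was −0.77 ± 0.26 (−1.32 to −0.22), with an adjusted p of 0.966 in a test that called 0.00762% of 13131 genes. Without the count filter it was called (−0.72, adjusted p = 0.00466), as were 37 genes in all.

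The activated-like levels of *Ccn1* and *Ankrd1* were also lower in both α-cdKO samples. *Ankrd1* had a log2 fold change of −0.60 ± 0.19 (−1.02 to −0.18, adjusted p = 0.514) and *Ccn1* one of −0.46 ± 0.16 (−0.83 to −0.09, adjusted p = 0.591). Without control 2, *Ankrd1* was called at −0.80 (adjusted p = 0.0488). In quiescent-like cells, where both genes were higher, the changes were −0.11 (−0.48 to 0.25) and −0.09 (−0.97 to 0.78), and without control 2 they were 0.12 and 0.54. All 3 target genes among the members thus lay lower in α-cdKO in this state. There 5 of 8 tested members had genotypes that did not overlap, as did 36.6% of all genes. The other 2 were *Yap1* and *Wwtr1*, which lay higher. The list of other YAP/TAZ target genes did not share this direction in activated-like cells. Of its 12 tested genes 7 had a log2 fold change above 0, with a median of 0.04. In that list 4 genes did not overlap, 2 of them higher in α-cdKO. The non-overlapping members were 3 of 10 in all myogenic cells (38.1% of genes), 0 of 9 in quiescent-like cells (41.0%) and 3 of 10 in differentiated-like cells (32.8%), near or below the share of all genes. Summed immediate-early transcripts in activated-like cells were 5666 and 4583 CPM in control and 3355 and 5091 CPM in α-cdKO samples, so that they overlapped between the genotypes. Summed mature-muscle markers in these cells were 163 and 424 CPM in control and 315 and 166 CPM in α-cdKO samples, with 10 of 10 markers counted, and their part in the differences was not tested.

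**Figure D5:**
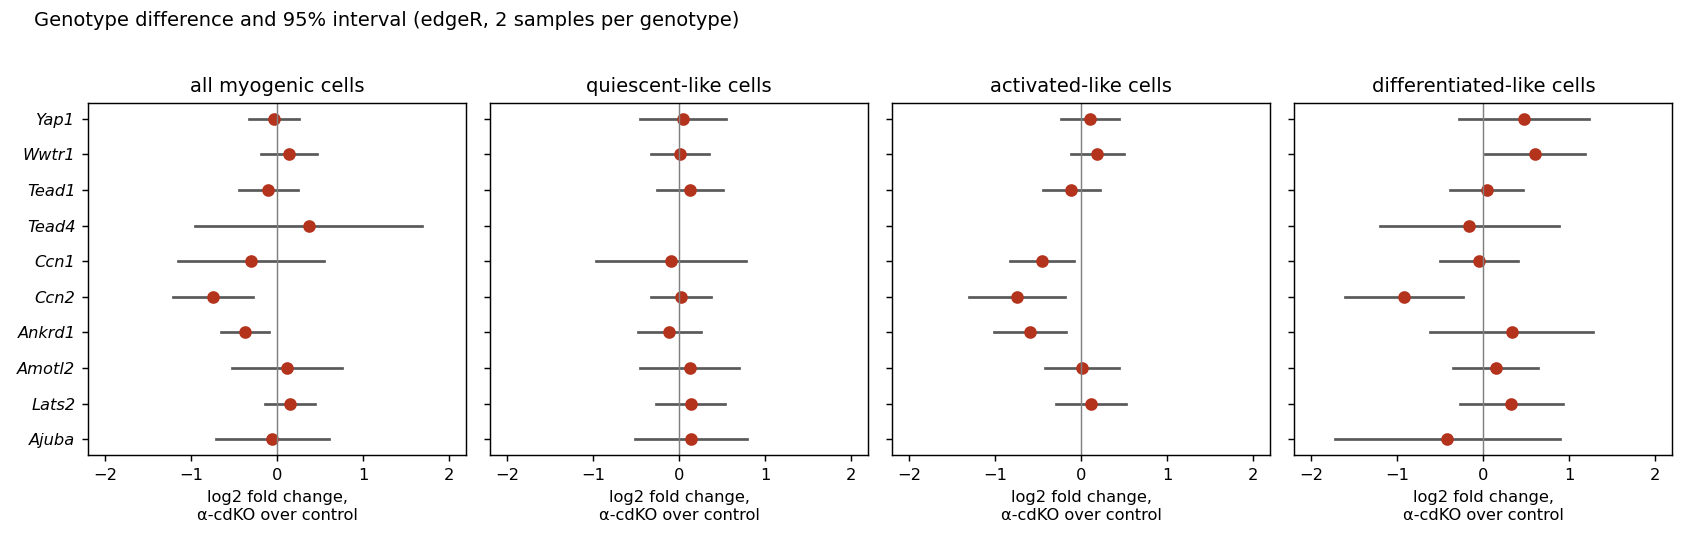
Log2 fold change of α-cdKO over control with 95% intervals from edgeR's quasi-likelihood fit for each member tested, in each class of cells. The intervals of *Ccn2* and *Ankrd1* in all myogenic cells and of *Ccn1*, *Ccn2* and *Ankrd1* in activated-like cells lie below 0, as does that of *Ccn2* in differentiated-like cells, where that of *Wwtr1* lies above 0, and no member had an adjusted p below 0.05.

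The intervals of the coactivators and of *Tead1* included 0. In all myogenic cells *Yap1* stood at 43.5, 39.8, 41.4 and 40.4 CPM, with the genotypes interleaved, and changed by −0.04 (−0.33 to 0.26). *Wwtr1* stood at 165, 139, 177 and 159 CPM and *Tead1* at 150, 134, 149 and 119 CPM, again with overlap. Their changes were 0.13 (−0.20 to 0.46) and −0.10 (−0.44 to 0.24), so that a change above 0.46 on the log2 scale in either direction lay outside the interval of all 3 genes. In differentiated-like cells *Wwtr1* was higher in α-cdKO by 0.60 ± 0.26 (0.02 to 1.18), with an adjusted p of 0.999 and with the control 1 value of 95.1 CPM just below the α-cdKO 2 value of 98.1 CPM. *Tead4* changed by 0.36 (−0.95 to 1.68) in all myogenic cells on 85 UMIs, an interval too wide to read. Among the regulators, *Amotl2* changed by 0.11 (−0.53 to 0.75), *Ajuba* by −0.06 (−0.71 to 0.60) and *Lats2* by 0.15 (−0.15 to 0.44). *Lats2* was 24.5 and 23.5 CPM in control and 27.8 and 25.8 CPM in α-cdKO samples, without overlap.

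The shares of myogenic cells with a UMI at 2000 UMIs per cell did not overlap between the genotypes for 2 of the 10 members. In CPM, 38.1% of all genes tested in myogenic cells did not overlap. The same count of shares was not made over all genes. *Ccn2* was detected in 19.4 and 22.3% of control and in 18.1 and 13.6% of α-cdKO cells. *Ankrd1* was detected in 12.6 and 12.6% of control and in 11.2 and 10.6% of α-cdKO cells. Both pairs were apart, by 5.01 and 1.70 percentage points on average, and a two-sided exact permutation test of 2 against 2 samples gave p = 0.33, the smallest it allows.

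No gene of the pathway lists was called between the genotypes. Of the Hippo kinases and upstream regulators 20 of 21 were tested in myogenic cells, with a median log2 fold change of −0.01, where the median of all genes was also −0.01. The 3 most abundant, *Map4k4*, *Frmd6* and *Limd1*, were among them. The 5 other TEAD and VGLL genes had a median of −0.20, 14 of the 16 other target genes one of 0.10 and the 15 MRTF/SRF genes one of 0.02. The 12 immediate-early genes had a median of −0.43 in all myogenic cells, with 0 of them above 0 and 6 without overlap (38.1% of all genes). The median was −0.37 in quiescent-like cells, with 7 without overlap (41.0%), and −0.44 in differentiated-like cells, with 8 without overlap (32.8%). In activated-like cells it was −0.07, with 0 without overlap (36.6%). In quiescent-like cells 6 of the 15 MRTF/SRF genes had an unadjusted p under 0.05, and 7 of the 15 were higher in both α-cdKO samples.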

How the data were processed

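The deposited files held raw UMI counts per gene and barcode for 4 samples of MuSCs at 14 DPT (2 control, 2 α-cdKO). Per the file headers, the authors made them with Cell Ranger 7.1.0, on a GRCm38 reference. The counting of introns is not given in the sources used here. The submitters' processing notes also name Seurat 4.0.3. Normalized values were not used. Cells with at least 1000 UMIs, 400 genes and under 15% mitochondrial UMIs were kept. They were clustered in Seurat 5.3.0 (2000 variable genes without the listed genes, 30 components, a Harmony-type integration over samples, Louvain resolution 0.2) and named where at least 4 markers of a list were raised 1.5-fold (5 CPM added). A Scrublet run (scanpy 1.11.5) marked 0 to 5 cells per sample at its automatic threshold and so did not work. Doublets stayed in, and 229 to 766 cells of highest score per sample were left out as an alternative.

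For each class, UMI counts were summed within a sample, and the sums were fitted by edgeR 4.0.16 in R 4.3.3 (filterByExpr, TMM, quasi-likelihood test, Benjamini-Hochberg adjustment over all genes tested, threshold 0.05), without a replicate block. DESeq2 1.42.0 was an alternative. The fits were tested on simulated data. Each sample pooled 2 mice, so that p-values measure the spread between pools. Totals ran from 46099310 to 74921651 UMIs per sample. Shares were taken after thinning to 2000 UMIs per cell, with exact binomial intervals that cover counting error only, and compared by exact permutation (scipy 1.17.1). Named were all 10 members, every called gene of a list and otherwise its 3 genes of highest level, and genes of the 3 most like each member, with 1 result not reported here. The members and lists were chosen with earlier results of these data known. Alternatives were other normalization, filters, depth, doublet, clustering and cell choices, replicate blocks and leaving out each sample.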

Additional observations from a re-analysis of the deposited data

How the results depend on the processing

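With 2 samples per genotype, the counts of called genes moved by over 1.5 times under many settings. Under most settings 0 members were called, and not every call of a member under the others is named here. In all myogenic cells the 25 calls became 122 with DESeq2 and 0 with all kept cells. In quiescent-like cells the 8 became 321 without the count filter, 30 with DESeq2 and 18 at clustering resolution 0.4. In activated-like cells the 23 became 93 without the filter and 59 with DESeq2. In differentiated-like cells the 4 became 66 without the filter, 8 with DESeq2, 1 with the listed genes kept for clustering and 7 at resolution 0.4. For the difference of the genotype effects the 1 became 37 without the filter (*Ccn2* among them, adjusted p = 0.00466), 2 with DESeq2 and 2 at resolution 0.4. With 1 sample left out, 11 to 54, 13 to 75, 24 to 115 and 9 to 166 genes were called in the 4 classes. *Ankrd1* in activated-like and *Ccn2* in differentiated-like cells were called without control 2, and *Ankrd1* in differentiated-like cells without control 1 (1.43, adjusted p = 0.00047). The cause was not tested.

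Same-numbered samples did not deviate together (correlation −0.18 across genes), so the replicate numbers were not taken as pairs. With the replicate block 13, 13, 102 and 20 genes were called, *Ccn2* in activated-like cells among them (−0.74, adjusted p = 0.0255). With the crossed replicate block, chosen after seeing the data, 150, 29, 127 and 7 were called.

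Ratios between states kept their sign under all settings except for *Tead4*, near 0. The 5 members at least 2-fold apart became 3 at resolution 0.4 and 5 to 6 with 1 sample left out. The members with non-overlapping shares were 2, and 5 to 8 with 1 sample left out. The genotype log2 fold change of members that were not called changed sign under these settings. With all kept cells it was 0.0087 (*Yap1*) and −0.25 (*Tead4*) in all myogenic cells. Without cycling, differentiated and mature cells it was 0.026 (*Yap1*) and 0.040 (*Ajuba*) in all myogenic cells. Without batch integration it was −0.0089 (*Yap1*), −0.41 (*Ccn2*), −0.038 (*Amotl2*) and −0.013 (*Lats2*) in quiescent-like cells, −0.054 (*Tead1*), −0.27 (*Ankrd1*) and −0.092 (*Amotl2*) in differentiated-like cells and 0.034 (*Amotl2*) and 0.12 (*Lats2*) in the activated-like minus quiescent-like difference. With clusters at resolution 0.4 it was −0.027 (*Yap1*) and −0.039 (*Ajuba*) in quiescent-like cells and −0.10 (*Ankrd1*) in differentiated-like cells. Without likely doublets it was −0.017 (*Wwtr1*) in quiescent-like cells. With the listed genes kept it was −0.021 (*Wwtr1*) in quiescent-like cells, −0.046 (*Tead1*) in differentiated-like cells and −0.010 (*Yap1*) in the activated-like minus quiescent-like difference. With chaperone-high for activated-like cells it was −0.086 (*Yap1*). Under the crossed block it was −0.0025 (*Amotl2*) in activated-like cells. For that difference of *Lats2* it was also 0.0033 with RLE size factors, 0.039 without the count filter and 0.0032 with DESeq2. With 1 sample left out the ranges that crossed 0 were these. In all myogenic cells they were −0.11 to 0.046 (*Yap1*), −0.24 to 0.022 (*Tead1*), −0.26 to 1.40 (*Tead4*), −0.74 to 0.24 (*Ccn1*), −0.25 to 0.60 (*Amotl2*) and −0.24 to 0.16 (*Ajuba*). In quiescent-like cells they were −0.22 to 0.35 (*Yap1*), −0.14 to 0.16 (*Wwtr1*), −0.084 to 0.31 (*Tead1*), −0.67 to 0.54 (*Ccn1*), −0.15 to 0.16 (*Ccn2*), −0.31 to 0.12 (*Ankrd1*), −0.25 to 0.63 (*Amotl2*), −0.014 to 0.27 (*Lats2*) and −0.0089 to 0.27 (*Ajuba*). In activated-like cells they were −0.28 to 0.029 (*Tead1*), −0.15 to 0.14 (*Amotl2*) and −0.015 to 0.27 (*Lats2*). In differentiated-like cells they were −0.077 to 0.18 (*Tead1*), −0.57 to 0.66 (*Tead4*), −0.26 to 0.18 (*Ccn1*), −0.34 to 1.43 (*Ankrd1*) and −1.0 to 0.044 (*Ajuba*).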
